A study of Homo sapiens with 2 samples.

Results

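The mRNAs described here encode proteins that build ribosomes or reside in the nucleolus. They were taken from the gene table by symbol alone: names that begin with UTP, NOP, NOL, RRP, EXOSC or GNL followed by a digit, and NCL, NPM1, FBL, DKC1, NHP2, GAR1, BOP1, PES1 and GLTSCR2. This gave 55 of the 10822 genes in the table. EXOSC6, UTP25, NOL4 and NOL4L were not analysed here. The first group was RNA recovered with a CNBP antibody (CNBP RIP) and the second was input RNA, both from UV-crosslinked HCT116 cells with no other treatment or genotype in the labels, an established line of human colon cancer. CNBP is a nucleic-acid-binding protein with zinc fingers, and the comparison asked which mRNAs came down with it. Each group was 1 library, so no difference below has a replicate check, a spread or a test. No library from a control antibody was used here, so what the beads recovered without the CNBP antibody is unknown.

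Ribosome assembly starts in the nucleolus, where a long precursor RNA is transcribed, modified, cut and packed with proteins. Small nucleolar ribonucleoproteins (snoRNPs) guide the chemical modification of the precursor, with box C/D particles adding methyl groups and box H/ACA particles making pseudouridine. The small subunit processome and a set of large subunit factors fold and cleave their own stretches of the precursor, and the RNA exosome trims and degrades the leftovers. Dividing cancer cells keep this pathway active, since growth needs new ribosomes.

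Levels were given as FPKM, a level scaled to transcript length and library size, with loci on build hg19. Over the whole table FPKM summed to 109684 for the RIP and 214387 for the input, and the depth behind these values is unknown. Of 7 colon epithelial markers, 6 had a row, with a summed level of 387 FPKM in the RIP and 1112 FPKM in the input. Most of the input sum came from KRT18 (564 FPKM), KRT8 (433 FPKM) and EPCAM (109 FPKM). CDX2 had 4.68 FPKM in the input and CDH1 0.415 FPKM. KRT20 was listed at 0 in the RIP and had 0.728 FPKM in the input. Of 5 markers of other cells, ALB and COL1A1 had a row, with a summed level of 4.92 FPKM in the RIP and 0.916 FPKM in the input. In the input ALB, at 0.718 FPKM, was above CDH1. Ratios of RIP over input are given as log2 values of FPKM plus 1, which understates the ratio of scarce mRNAs.

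The 55 mRNAs did not move as a block, and their ratios spread over both sides of 0. Higher in the RIP by 4-fold or more were 8 (14.5%), against 12.5% of all genes. At least 4-fold lower were 9 (16.4%), against 13.5% of all genes. At a log2 ratio of 0.58, about 1.5-fold, 19 (34.5%) were higher and 25 (45.5%) were lower, beside 42.6% and 34.7% of all genes. With 1 added to each FPKM, the 4-fold shares were thus near the background, while the 1.5-fold shares leaned to the lower side. The median log2 ratio was -0.29 over the members and 0.28 over all genes. UTP15, listed at 0 in the RIP, has a row only through its input level and counts among the 25. UTP14C has a row only through its RIP level and counts among the 8. The median level of the members was 12.9 FPKM in the RIP and 14.5 FPKM in the input. Together the members held 2.10% of all FPKM of the RIP and 1.03% of that of the input, and GLTSCR2 alone had 670 of their 2300.3 FPKM in the RIP. All 55 had a mean FPKM of at least 1, 49 reached 1 FPKM in each library, and UTP15 alone was listed at 0, in the RIP.

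**Figure D1:**
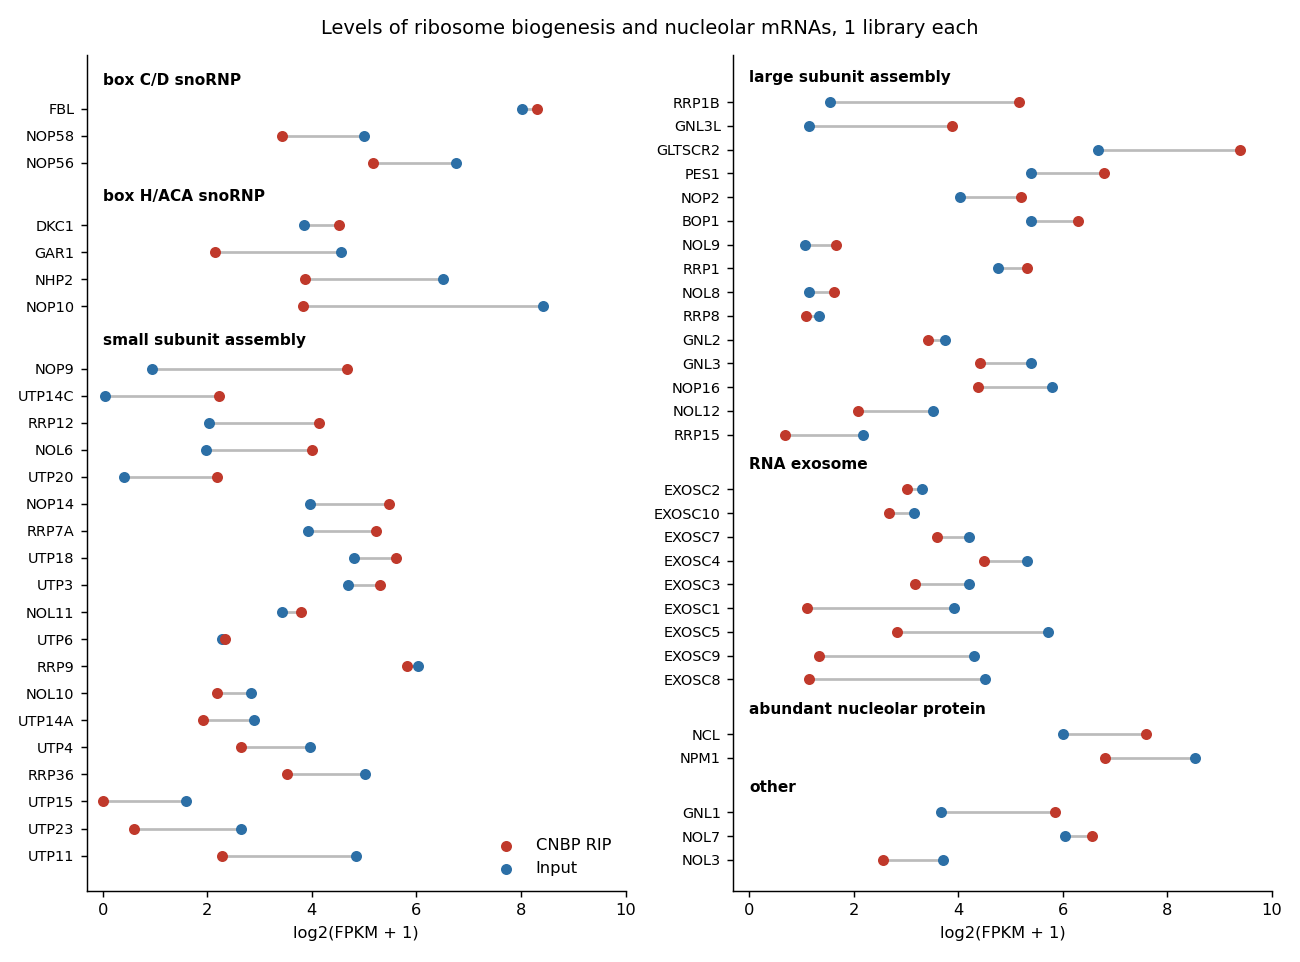
Levels of the 55 mRNAs in the CNBP RIP (red) and the input (blue), 1 library each, as log2(FPKM + 1), grouped by role and ordered within each role by ratio. NOP9 (RIP 24.5 FPKM, input 0.938 FPKM) and NOP10 (RIP 13.2 FPKM, input 342 FPKM) have the longest connecting lines in opposite directions.

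The scaling of the libraries shifts every ratio. When both libraries were rescaled to the mean of their FPKM sums, the median of all genes moved to 0.85 and that of the members to 0.56, so that the difference of members minus all genes was -0.29 in place of -0.57. The counts of members past 4-fold were then 14 higher and 4 lower, beside 22.6% and 8.17% of all genes, and past 1.5-fold 26 higher and 16 lower, beside 56.7% and 24.5%. All ratios below use the values before any rescaling, and the place of a gene among the 10822 is given as a percentile.

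Ratios differed between roles. Over the small subunit factors the median was 0.37 (n = 19), and over the large subunit factors 0.57 (n = 15), both above the median gene. Over the RNA exosome it was -1.01 (n = 9), over the box C/D proteins -1.57 (n = 3) and over the box H/ACA proteins -2.53 (n = 4). After rescaling these medians were 1.25, 1.20, -0.13, -0.65 and -1.65 in the same order, beside 0.85 for the median gene. Centred on the median gene, the small subunit median was 0.08 and the large subunit median 0.28. With 1 library a group the error of these medians is unknown.

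**Figure D2:**
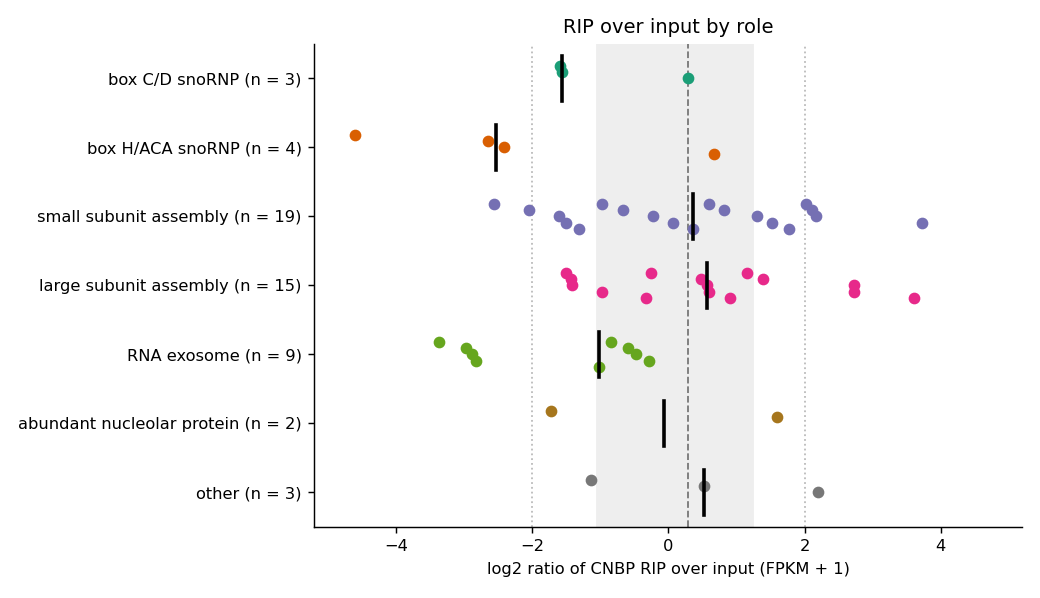
Log2 ratio of CNBP RIP over input for each of the 55 genes by role, with the class median as a black bar. The dashed line is the median of all 10822 genes (0.28), the grey band runs between their quartiles (-1.05 and 1.25), and the dotted lines mark 4-fold; the exosome points all lie left of 0, and the assembly factors lie on both sides.

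Of the box C/D snoRNP proteins, the methyltransferase differed from its partners. FBL, the fibrillarin gene (ENSG00000105202.7_2, chromosome 19, 40325098 to 40337054), reached 314 FPKM in the RIP and 258 FPKM in the input, and its ratio of 0.28 stood at percentile 50.0. NOP56, a core protein of the same particle, had 35.0 FPKM in the RIP and 108 FPKM in the input (-1.60). NOP58, its close relative, had 9.78 FPKM in the RIP and 31.0 FPKM in the input (-1.57). FBL therefore stood level with the median gene, and NOP56 and NOP58 lay below it by nearly equal amounts. Less the median ratio of its bin among 10 bins of locus span, FBL was at 0.68, NOP56 at -0.86 and NOP58 at -1.86. Less that of its bin of input level, FBL was at 2.89, NOP56 at 1.01 and NOP58 at 1.04. Relative to NOP56, the level of FBL was 8.97 times as high in the RIP and 2.39 times as high in the input.

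Of the box H/ACA proteins, the enzyme also differed from its partners, by larger amounts. DKC1, the pseudouridine synthase dyskerin, which is also part of telomerase (chromosome X, 153991017 to 154005964), reached 21.9 FPKM in the RIP and 13.4 FPKM in the input, a ratio of 0.67 at percentile 59.9. NOP10 (ENSG00000182117.5_1, chromosome 15, 34633914 to 34635378) reached 13.2 FPKM in the RIP and 342 FPKM in the input. Its ratio of -4.60 (24.2-fold on the FPKM plus 1 scale) was the lowest of the 55 and lay at percentile 1.33. NHP2 had 13.6 FPKM in the RIP and 90.6 FPKM in the input (-2.65), and GAR1 had 3.44 FPKM in the RIP and 22.6 FPKM in the input (-2.41). These 3 core proteins (75% of the class, beside 13.5% of all genes) were at least 4-fold lower, and DKC1 was above 0. After rescaling to the mean sum NOP10 alone was past 4-fold, with NHP2 at -1.73 and GAR1 at -1.58. The locus of NOP10 spans 1465 bases and that of NHP2 4508 bases, both in the shortest of 10 equal bins of span, whose median ratio was -1.12. Less that median NOP10 was at -3.48 and NHP2 at -1.54. GAR1, from the next bin, was at -1.67 after the same subtraction. By input level NOP10 and NHP2 lie in the highest of 10 bins, whose median ratio was -2.61. Less the median of its bin of input level, NOP10 was at -1.99, GAR1 at -0.97, NHP2 at -0.05 and DKC1 at 2.12.

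Of the 19 small subunit factors 4 (21.1%) were past 4-fold upward and 2 (10.5%) downward, beside 12.5% and 13.5% of all genes. Centred on the median gene 1 was past 4-fold upward and 2 downward, beside 9.09% and 16.0% of all genes. They held the highest ratio of the 55. NOP9, a pumilio-like protein of early small subunit precursors (ENSG00000196943.12_2, chromosome 14, 24769068 to 24778330), reached 24.5 FPKM in the RIP and 0.938 FPKM in the input. Its ratio was 3.72 (13.2-fold) at percentile 98.5. NOP9 overlaps the locus of LTB4R2 on the same strand, a gene at 1.68 FPKM in the RIP and at 0 in the input table. RRP12, a HEAT-repeat protein of late maturation and export, had 16.6 FPKM in the RIP and 3.08 FPKM in the input (2.11). NOL6, the human counterpart of yeast Utp22, had 15.0 FPKM in the RIP and 2.95 FPKM in the input (2.01). UTP14C had 3.65 FPKM in the RIP and 0.0356 FPKM in the input (2.17). A gene has a row only if its FPKM reached a lower limit in 1 library or the other. In the input UTP14C and UTP20, given below, were under that limit. Their rows thus required a higher level in the RIP, and their ratios could only be above 0. UTP14C is a retrogene copy of UTP14A and the copies can share reads, so its value is uncertain. On the upper side NOL6 was the member nearest to the 4-fold limit inside it, and UTP20, a very large scaffold protein, was the nearest outside, with 3.58 FPKM in the RIP and 0.336 FPKM in the input (1.78).

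Other small subunit factors were higher by less. NOP14 had 43.8 FPKM in the RIP and 14.5 FPKM in the input (1.53), and RRP7A had 36.4 FPKM in the RIP and 14.1 FPKM in the input (1.31). UTP18 was at 0.82 and UTP3 at 0.60. NOL11 (0.37), UTP6 (0.06) and RRP9 (-0.22), a protein of the U3 snoRNP, lay between the 1.5-fold limits. RRP9 was abundant in both libraries, with 55.4 FPKM in the RIP and 64.8 FPKM in the input.

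The low end of the small subunit class was made of UTP genes for the most part. UTP11 had 3.85 FPKM in the RIP and 27.6 FPKM in the input (-2.56). UTP23 had 0.514 FPKM in the RIP and 5.23 FPKM in the input (-2.04), and its locus overlaps EIF3H and RAD21 on the opposite strand. UTP15, with 2.04 FPKM in the input, stood at 0 in the RIP and gets no fold. RRP36, which acts in early cleavage, was at -1.50, UTP4, which overlaps SNTB2 on the same strand, at -1.32, UTP14A at -0.98 and NOL10 at -0.66. Of the 10 UTP genes, 4 were past 1.5-fold upward and 5 downward, where 42.6% and 34.7% of all genes were. UTP14C and UTP20, both past 1.5-fold upward, could only be above 0 by the limit for a row, and UTP15 only below 0.

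Of the 15 large subunit factors 3 (20%) were past 4-fold upward and none downward, beside 12.5% and 13.5% of all genes. With a pseudocount of 0.1, 1 was past 4-fold downward, beside 22.6% of all genes. RRP1B (ENSG00000160208.12_1, chromosome 21, 45079429 to 45115960) reached 34.6 FPKM in the RIP and 1.91 FPKM in the input, with a ratio of 3.61 (12.2-fold) at percentile 98.3. GNL3L, a nucleolar GTPase (chromosome X, 54556644 to 54587504), reached 13.8 FPKM in the RIP and 1.22 FPKM in the input (2.73). GLTSCR2, now named NOP53, a large subunit assembly factor (ENSG00000105373.18_1, chromosome 19, 48248779 to 48260315), reached 670 FPKM in the RIP and 101 FPKM in the input (2.72). Its level was the 3rd highest of the table in the RIP and the 358th in the input. GLTSCR2 was therefore abundant in both libraries, whereas RRP1B and GNL3L were scarce in the input.

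Both proteins of the PeBoW complex in the set, which is needed for cleavage on the large subunit side, were on the upper side. PES1 had 109 FPKM in the RIP and 41.0 FPKM in the input (1.38), and BOP1 had 77.5 FPKM in the RIP and 41.0 FPKM in the input (0.90). Their input levels were in a ratio of 1.00, and their RIP levels in a ratio of 1.40. NOP2, an rRNA cytosine methyltransferase, had 35.6 FPKM in the RIP and 15.4 FPKM in the input (1.16). NOL9, a kinase that acts on the spacer between rRNAs, was at 0.60. RRP1 (0.57), NOL8 (0.48), RRP8 (-0.25) and the GTPase GNL2 (-0.33) lay between the 1.5-fold limits.

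At the low end of the large subunit class, RRP15 had 0.606 FPKM in the RIP and 3.55 FPKM in the input (-1.50). NOL12 had 3.23 FPKM in the RIP and 10.4 FPKM in the input (-1.43). NOP16 had 19.9 FPKM in the RIP and 54.4 FPKM in the input (-1.41), and it overlaps HIGD2A on the opposite strand. GNL3, which encodes nucleostemin, had 20.3 FPKM in the RIP and 40.7 FPKM in the input (-0.97).

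The paralogs of 3 pairs differed in ratio, unlike NOP56 (-1.60) and NOP58 (-1.57) before the median of the span bin was taken off. RRP1B and RRP1 had 34.6 and 38.9 FPKM in the RIP, and 1.91 and 25.96 FPKM in the input. GNL3L and GNL3 had 13.8 and 20.3 FPKM in the RIP, and 1.22 and 40.7 FPKM in the input. UTP14C and UTP14A had 3.65 and 2.77 FPKM in the RIP, and 0.0356 and 6.41 FPKM in the input. The first gene of each pair had 0.889, 0.678 and 1.32 times the level of the second in the RIP, and 0.0736, 0.0300 and 0.00556 times in the input. The log2 ratios differed by 3.05 for the RRP1 pair, 3.70 for the GNL3 pair and 3.14 for the UTP14 pair. The first gene of each pair was scarcer in the input, the denominator of the ratio. UTP14C has a row only through its RIP level, so the sign of its ratio was fixed beforehand. Less the median ratio of its bin among 10 bins of input level, RRP1B was at 3.28 and RRP1 at 2.01. By the same measure GNL3L was at 2.40 and GNL3 at 1.64, and UTP14C at 1.05 and UTP14A at -0.28, so each pair lay closer. The 3 pairs were picked after their values were seen.

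All 9 subunits of the RNA exosome in the set were below 0, although 4 were above 0 after rescaling to the mean sum and 2 less the median of their span bin. The 4 lowest were at least 4-fold lower, which is 44.4% of the class beside 13.5% of all genes. EXOSC8, a ring subunit (ENSG00000120699.12_2, chromosome 13, 37572953 to 37583750), reached 1.22 FPKM in the RIP and 21.9 FPKM in the input, a ratio of -3.37 at percentile 4.62. EXOSC9, another ring subunit, had 1.52 FPKM in the RIP and 18.7 FPKM in the input (-2.97). EXOSC5, also of the ring, had 6.15 FPKM in the RIP and 51.5 FPKM in the input (-2.88). EXOSC1, a cap subunit, had 1.15 FPKM in the RIP and 14.2 FPKM in the input (-2.82). These 4 lie in the 2 highest of 10 bins of input level, whose median ratios were -1.45 and -2.61. Less the median of its own bin EXOSC8 was at -1.92, EXOSC9 at -1.52, EXOSC1 at -1.38 and EXOSC5 at -0.27. By that measure 5 of the 9 subunits were above 0. Before any bin median was taken off, these 4 stood apart from the other 5, which lay between -1.01 and -0.29.

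Among those 5, the cap subunit EXOSC3 had 8.07 FPKM in the RIP and 17.3 FPKM in the input (-1.01). The ring subunits EXOSC4 (-0.84) and EXOSC7 (-0.60) followed. EXOSC10, the nuclear 3′ to 5′ exonuclease, had 5.41 FPKM in the RIP and 7.87 FPKM in the input (-0.47), and the cap subunit EXOSC2 had 7.12 FPKM in the RIP and 8.93 FPKM in the input (-0.29). The subunits with the lowest ratios and those with the least low ones thus both included ring and cap proteins. After rescaling to the mean sum 3 of the 9 were at least 4-fold lower. EXOSC8, EXOSC9, EXOSC5, EXOSC3 and EXOSC7 overlap a locus on the opposite strand, EXOSC3 also RP11-613M10.9 on its own. Of the 55 members 17 overlap a locus, 16 on the opposite strand and 3 on the same strand. NHP2, GNL3, NOL8, PES1, NOL3, NOL7, GNL1 and UTP15 are also among those with a locus on the opposite strand. The sources used here do not say whether counting used the strand that the library kit keeps.

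The 2 abundant nucleolar phosphoproteins lay on opposite sides. NCL, the nucleolin gene (ENSG00000115053.15_2, chromosome 2, 232318242 to 232348352), reached 193 FPKM in the RIP and 63.2 FPKM in the input (1.59). NPM1, the nucleophosmin gene (ENSG00000181163.13_2, chromosome 5, 170814120 to 170838141), reached 111 FPKM in the RIP and 370 FPKM in the input (-1.72). NCL was thus the more abundant in the RIP, at 1.73 times the level of NPM1, and had 0.171 of its level in the input. NPM1 has many processed pseudogenes, which can take reads from it.

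The name patterns also caught genes of other or less certain roles. GNL1, a GTPase gene (chromosome 6, 30509154 to 30524951), reached 56.9 FPKM in the RIP and 11.7 FPKM in the input (2.19). NOL7, which encodes a nucleolar protein, had 93.3 FPKM in the RIP and 64.6 FPKM in the input (0.52). NOL3, which encodes an apoptosis repressor, had 4.90 FPKM in the RIP and 12.0 FPKM in the input (-1.14). Without these 3 the median of the remaining 52 was -0.31.

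Ratios in this table moved with the level in the input. In 10 equal bins of input FPKM the median ratio was 1.12 in the lowest bin and -2.61 in the highest, and the input is itself the denominator of the ratio. The 2 highest bins held 18 and 17 of the 55 members. Against the median of its own bin, 41 members were above and 14 below, where all genes divide evenly by construction, and the median member was 1.04 above. GLTSCR2 stood 5.33 above the median of its bin, NCL 4.20, PES1 3.99, BOP1 3.51 and FBL 2.89. NPM1 was 0.89 above, NHP2 was at -0.05, and NOP10 was at -1.99. The members thus lay below the median of the whole table and, for the most part, above the median of their own bin of input level. By this measure the large subunit factors had a median of 1.64, the small subunit factors 1.06 and the box C/D proteins 1.04. The exosome was at 0.23, whereas the box H/ACA proteins stayed at -0.51. Across the members, Spearman's rho between ratio and input level was -0.35 (n = 55), and across all genes -0.61 (n = 10822). These points share the 2 libraries and the input value, and the limit for a row fixes the sign of the ratio at low input.

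**Figure D3:**
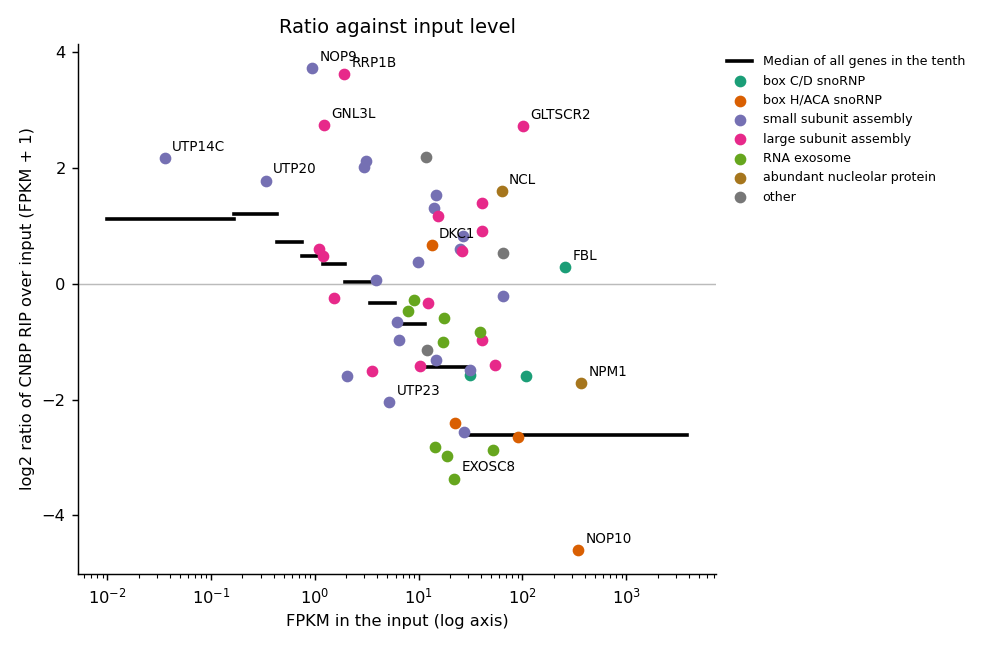
Log2 ratio of CNBP RIP over input for the 55 genes against FPKM in the input (log axis), coloured by role, with the median of all genes in each of 10 bins of input level as black lines, the lowest bin drawn from the left of the axis since it begins at 0. GLTSCR2, NCL and FBL lie well above the line of the highest bin (-2.61), and NOP10 lies below it.

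Ratios also moved with gene size. The span of the locus, from its start to its end, gave a median ratio of -1.12 in the shortest bin of genes and 1.00 in the longest. No member lay in the longest bin, and 5, 8 and 12 lay in the 3 shortest. The median span of the members was 15781 bases, beside 29758 bases for all genes. After the median of the same span bin was taken from each ratio, the median of the members was 0.10, with 28 above 0. NOP9 was then at 4.46, RRP1B at 3.32 and GLTSCR2 at 3.11, while the exosome median was -1.36 and 4 of its subunits were still past 4-fold. Spearman's rho between ratio and span was 0.21 across the members and 0.37 across all genes. The part of span and of input level in these ratios was not tested.

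**Figure D4:**
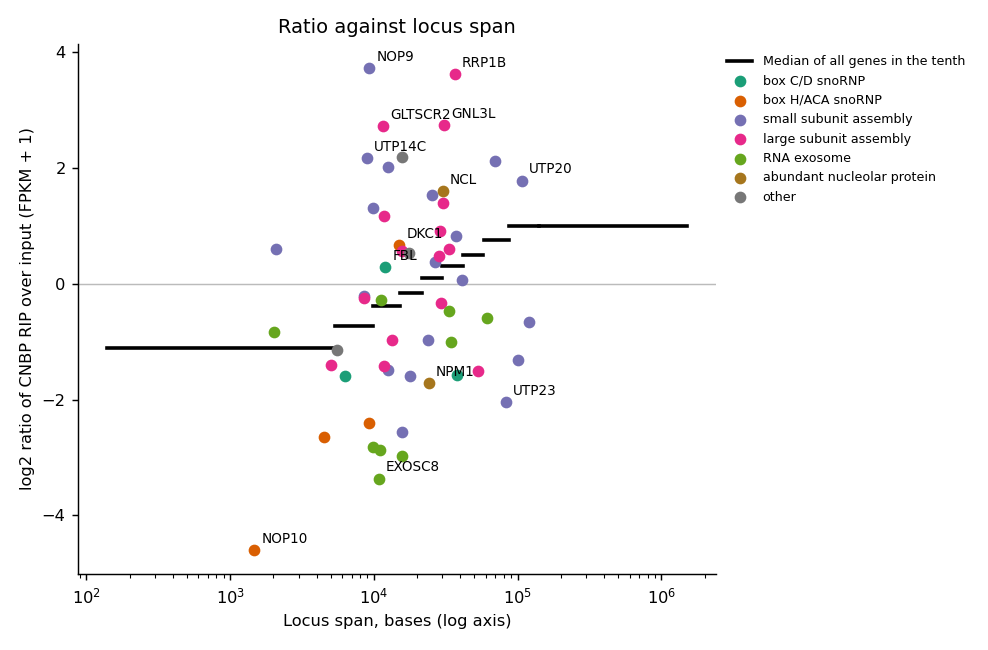
Log2 ratio of CNBP RIP over input for the 55 genes against the span of the locus in bases (log axis), coloured by role, with the median of all genes in each of 10 bins of span as black lines. NOP9 (4.46), RRP1B (3.32) and GLTSCR2 (3.11) lie far above the line of their bin, and NOP10 (-3.48) far below.

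CNBP prefers G-rich RNA with a GGAG core, so the first 50 transcribed bases of the members were searched for GGAG. RefSeq (GRCh38.p14) gave start sequences for 47 of the 55, of which 5 had more than 1 start. A member was counted if any of its starts held GGAG, whereas the background below counts each start singly. The shares of members and of starts therefore differ in unit, and members with more than 1 start had more places to match. Of these 5, EXOSC3, NPM1, GNL3 and NOL3 had a match on the transcribed strand, and GAR1 had none. On the transcribed strand GGAG occurred in 20 of the 47 (42.6%), beside 36.6% of all 35116 RefSeq starts. On the other strand it occurred in 16 members (34.0%), beside 29.6% of all starts. On the transcribed strand 7 of 16 members past 1.5-fold upward held it (43.8%), and 9 of 20 past 1.5-fold downward (45.0%). A match is a description of the letters near an annotated start, which may not be the start used in HCT116.

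To show what such matches look like on either side, windows around the first match are printed for the 3 highest and 3 lowest ratios among members with a match and a single RefSeq start, with up to 10 bases on each side and every GGAG in capitals. GNL3L lies at chrX:54530219-54530236 on the plus strand, GLTSCR2 at chr19:47745559-47745582 (plus), PES1 at chr22:30591876-30591899 (minus), EXOSC5 at chr19:41397313-41397336 (minus), NOP56 at chr20:2652639-2652662 (plus) and RRP36 at chr6:43021651-43021672 (plus), all in GRCh38.p14.
GNL3L: agtcGGAGcctagctgcg
GLTSCR2: gatggcggcaGGAGgcagtggcgt
PES1: ggcacgtgcgGGAGgaagtGGAGc
EXOSC5: tcggcgcgatGGAGGAGGAGacgc
NOP56: gccgaacccgGGAGctggcgccat
RRP36: gctgatgccgGGAGctaactac
The first 3 were higher in the RIP (2.73, 2.72 and 1.38) and the last 3 lower (-2.88, -1.60 and -1.50). PES1 and EXOSC5 hold more than 1 copy in the window, and the copies in EXOSC5 overlap, so both sides include such a case.

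Further genes of the pathway, 95 symbols listed by function, were compared in the same way, and 90 had a row. Among the other 5, MKI67IP and CIRH1A are older names of NIFK and UTP4, which are counted under the newer names. The 90 had a median ratio of -0.22, beside 0.28 for all genes. Past 4-fold upward were 11 (12.2%) and downward 15 (16.7%), near the 12.5% and 13.5% of all genes. The highest were MDN1, a giant ATPase that strips factors from large subunit precursors, with 30.4 FPKM in the RIP and 0.255 FPKM in the input (4.65), PDCD11, the human Rrp5 (3.25), and URB1 (3.21). The lowest above 0 in both libraries were EIF6, which keeps subunits from joining, with 12.5 FPKM in the RIP and 234 FPKM in the input (-4.12), NIFK (-3.76) and NSA2 (-3.56). DIMT1, FCF1, NUFIP1 and C1D were listed at 0 in the RIP, with 4.91, 1.69, 4.85 and 3.89 FPKM in the input. By the limit for a row these could only be below 0, and MDN1, under that limit in the input, only above 0.

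By group, the other small subunit factors had a median of -0.78 (n = 35) and the other large subunit factors -0.11 (n = 34). Both were below the classes of the same role above. Less the median of the span bin they were at -0.60 and -0.48, beside 0.52 and 0.49 for those classes. Less the median of the bin of input level they were at 1.11 and 0.42, beside 1.06 and 1.64, so the small subunit order did not hold. The snoRNP assembly factors were at -0.24 (n = 10), with TCOF1, the nucleolar protein treacle, at 3.16. The exosome cofactors were at 0.53 (n = 11), with none past 4-fold upward and 3 past 4-fold downward, C1D at 0 in the RIP included. Less the median of the bin of input level the cofactors were at -0.05, beside 0.23 for the exosome subunits. Among the cofactors the catalytic subunit DIS3 had 3.44 FPKM in the RIP and 0.920 FPKM in the input (1.21). SKIV2L2, the exosome helicase, had 5.82 FPKM in the RIP and 3.73 FPKM in the input (0.53). WDR12, the partner of PES1 and BOP1, had 1.65 FPKM in the RIP and 4.20 FPKM in the input (-0.97), on the other side of 0 from both.

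**Figure D5:**
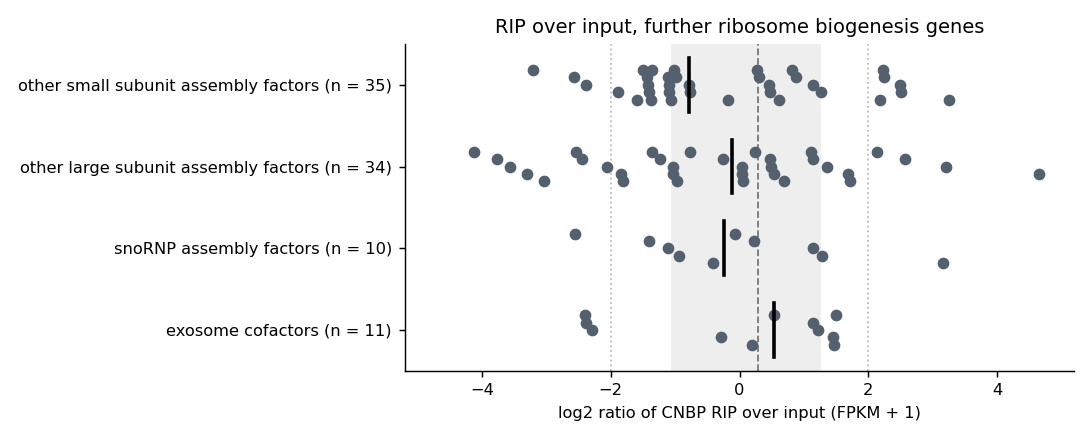
Log2 ratio of CNBP RIP over input for 90 further genes of the pathway in 4 groups, with group medians as black bars and the median (0.28, dashed) and quartile range (grey) of all genes. MDN1 (4.65) and EIF6 (-4.12) are the extremes, both among the large subunit factors.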

How the data were processed

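RNA of a CNBP immunoprecipitate and of input from HCT116 cells was sequenced, 1 library each. The authors deposited FPKM per gene in 1 table, and build hg19 with HISAT2, StringTie, cutadapt and FastQC stand in the submitters' processing notes (no version or order given). Its 10836 rows are protein-coding genes, each with an FPKM of at least 0.500 in 1 library or the other. The first row of each of 10822 symbols was kept (14 repeats left out, none a member). A pseudocount of 1 was added to each FPKM before the log2 of RIP over input was taken. Genes were counted at 2 (4-fold) and 0.58 (about 1.5-fold), as rules of size, since no test is possible. Percentiles and 10 equal bins of span or input level were taken over the 10822 genes. The members, role classes and lists were chosen with earlier results of these data known. Input bins, GGAG windows, paralog pairs and the limit of 0.1 for a moved log2 value were set after values were seen.

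The named genes were those the selection gives by symbol, the 2 highest and 2 lowest ratios of each role (all of a class under 5), members past 4-fold or listed at 0, and the 3 highest and 3 lowest of the further pathway genes. Other members were named to account for all 55. Alternatives were pseudocounts of 0.1, 0.5 and 5, filters at FPKM 1, rescaling of the sums (also leaving out the top 20 genes of each library), centring, span bins and summing of repeated symbols. FPKM divides by transcript length, so uneven coverage can move it, and without depth no interval is given. Python 3.11.15, pandas 2.3.3, numpy 2.4.6 and matplotlib 3.10.9 were used, and the calculations were checked on simulated data.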

Additional observations from a re-analysis of the deposited data

How the results depend on the processing

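No paired analysis was possible because each group is 1 library and no result comes from a test. Counts of members stayed within 1.5 times of their values as deposited, and the median of the members moved by under 0.1, with pseudocounts of 0.1 and 0.5, with either FPKM filter and with repeated symbols summed. The shares of all genes moved more. With a pseudocount of 0.1, 9 members were at least 4-fold higher and 11 lower, beside 27.9% and 22.6% of all genes. With FPKM of at least 1 in both libraries, 16 of 49 members were at least 1.5-fold higher and 22 lower, beside 33.4% and 39.1% of all genes. The difference of members minus all genes was then -0.19. With a pseudocount of 5, 3 members were at least 4-fold higher and 4 lower, beside 3.09% and 6.65% of all genes. Rescaled to the mean sum, 14 were at least 4-fold higher and 4 lower, 16 were at least 1.5-fold lower, and the median of the members was 0.56. Of the members at least 1.5-fold lower as deposited, EXOSC7 (0.30), NOL10 (0.13) and EXOSC4 (0.094) then turned above 0, and of those within 1.5-fold RRP9 (0.73), EXOSC2 (0.57), GNL2 (0.56), EXOSC10 (0.37) and RRP8 (0.30) did. With the sums taken without the 20 most abundant genes of either library these counts at 4-fold were 13 and 5, beside 21.2% and 8.68% of all genes. The median of the members was then 0.45, and EXOSC7 (0.20), NOL10 (0.037), RRP9 (0.62), EXOSC2 (0.47), GNL2 (0.45), EXOSC10 (0.27) and RRP8 (0.24) turned above 0. Centred on the median gene, 4 members were at least 4-fold higher, beside 9.09% of all genes. The median of the members was then -0.57, and UTP6 (-0.22) turned below 0. Less the median of the span bin, the median was 0.10, EXOSC4 (0.28), RRP9 (0.52), RRP8 (0.49) and EXOSC2 (0.10) turned above 0, and UTP6 (-0.23) turned below. Leaving out a library was not possible, and without depth the counting error of low values is unknown.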

Other observations

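Some members carry snoRNA genes in their introns, and 6 such hosts were listed as background: NOP56, NOP58, NCL, GNL3, DKC1 and GLTSCR2. They divided evenly, with 3 above and 3 below 0. GLTSCR2 (2.72), NCL (1.59) and DKC1 (0.67) were higher in the RIP, and GNL3 (-0.97), NOP58 (-1.57) and NOP56 (-1.60) were lower. Their median was -0.15, and that of the other 49 members -0.29. Against genes in the same bin of input level all 6 were above the median, as were 35 of the other 49. The snoRNAs were not analysed here.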
